A study of Mus musculus with 17 samples.

Results

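Mammary stem cell regulators are described here as 10 genes, Procr, Lgr5, Lgr6, Trp63, Snai2, Bcl11b, Itgb1, Itga6, Tspan8 and Sox9, taken by exact symbol from 35147 gene names listed over all tables. All 10 were listed in the stem-cell-enriched basal cells, and 9 in each of the macrophage tables: Tspan8 was not listed in the knockout and CXCR4-sort tables, and Trp63 was not listed in the culture table. The study profiled RNA from mammary glands of virgin mice in 17 libraries of 12 groups, around the chemokine CXCL12, its receptor CXCR4 and macrophages as a niche for mammary stem cells. The groups were as follows. P4 cells, a basal population gated as lineage-negative, CD24-positive and CD29-high, gave 1 library from mice with Cxcl12 deleted in luminal cells by K8-Cre and 1 from K8-Cre wild type controls. Sorted F4/80 and CD11b macrophages gave 2 libraries each from LysM-Cre Cxcr4 knockouts, LysM-Cre wild type controls, K8-Cre Cxcl12 knockouts and K8-Cre wild type controls. Macrophages sorted further by surface CXCR4 gave 2 positive libraries and 1 negative. Macrophages cultured in RPMI with serum gave 1 library each with recombinant CXCL12, with the AKT inhibitor GSK690693, with both, and untreated. The LysM driver recombines in the myeloid lineage, of which macrophages are 1 part, and the K8 driver in luminal epithelium, whereas P4 cells are basal and macrophages are not epithelial. The labels give no age or strain, and do not say whether repeats came from separate or pooled animals. The p-values thus rest on a spread between libraries that may be technical. In the knockout fit that spread was taken mostly, and in the CXCR4 sort wholly, from the trend over genes of similar level.

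The mammary epithelium has an inner luminal layer and an outer basal layer, and transplanted basal cells with stem cell activity can regrow a ductal tree. That activity is enriched by surface integrins, whose beta 1 subunit (CD29) is the product of Itgb1 and whose alpha 6 subunit (CD49f) is the product of Itga6, and is sustained by Wnt signalling, which R-spondins amplify through LGR receptors. The basal state depends on the transcription factor p63, while Snai2, Sox9 and Bcl11b are transcription factors tied to stem cell activity, and Procr and Tspan8 are surface proteins used to mark stem cell subsets.

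All 10 are protein-coding genes, placed here on GRCm38 by GENCODE M21. Itgb1 (ENSMUSG00000025809) lies at chr8:128685654-128733200 and Itga6 (ENSMUSG00000027111) at chr2:71745616-71858416, both on the plus strand. Lgr5 (ENSMUSG00000020140) lies at chr10:115450311-115587780 and Lgr6 (ENSMUSG00000042793) at chr1:134983301-135105276, both on the minus strand. Procr (ENSMUSG00000027611) lies at chr2:155751117-155755471 and Tspan8 (ENSMUSG00000034127) at chr10:115816832-115849893, both on the plus strand. Trp63 (ENSMUSG00000022510) at chr16:25683763-25892102, Snai2 (ENSMUSG00000022676) at chr16:14705852-14709385 and Sox9 (ENSMUSG00000000567) at chr11:112782224-112787760 are on the plus strand, and Bcl11b (ENSMUSG00000048251) at chr12:107910403-108003602 is on the minus strand.

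Depth was 8601811 to 37233302 reads in the 8 knockout-table libraries, 23198715 to 28796238 reads in the CXCR4 sort and 14322633 to 29042503 reads in culture, and is unknown for the P4 libraries. K8-Cre control 1 was the shallowest library, with 37.0% of listed genes at 0, and stood apart from the other 7 of its table, which had 8.15% to 30.5% at 0. Cxcr4 was at 232 and 140 CPM (reads of a gene scaled to the depth of its library) in LysM-Cre Cxcr4 knockout macrophages, against 819 and 318 CPM in LysM-Cre controls, lower in both. In the CXCR4 sort, which used surface protein, Cxcr4 RNA was at 632 and 875 CPM in positive cells and 772 CPM in negative cells, so the RNA did not separate them. Cxcl12 was at 350 FPKM in knockout P4 cells and 270 FPKM in control P4 cells (FPKM, reads scaled to depth and transcript length), which checks nothing, since the deletion was in luminal cells. In the P4 libraries 13 of 13 basal markers were at 1 FPKM or more, with sums of 9916 FPKM in the knockout and 7868 FPKM in the control, and luminal markers summed to 588 FPKM in the knockout and 501 FPKM in the control.

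In P4 basal cells, the question was whether loss of luminal Cxcl12 moved with the level of these regulators. Bcl11b was 3.50-fold lower in the knockout, and was the only one of the 10 at least 2-fold apart on the log2 scale with a prior of 1 FPKM added to both sides. Procr was 1.93-fold higher. Itgb1, Itga6, Sox9, Trp63 and Snai2 were lower by less than 2-fold, and Lgr6 was nearly level. The share of all 13146 genes at least 2-fold apart, counting genes of 1 FPKM or more in the higher library, was 23.1%, with 13.5% higher and 9.68% lower in the knockout. By that rule 0 members were higher and 1 was lower. The median log2 ratio of the 10 was -0.33, beside 0.03 for all genes tested, with 7 below 0 and 3 above. With 1 library a group there is no replicate check and no test. In bulk RNA, fewer cells of a type and less RNA per cell cannot be told apart.

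The integrin subunits, through which basal cells hold the basement membrane, were the most abundant members per length. Itgb1 had 335 FPKM in the knockout and 447 FPKM in the control, a log2 ratio of -0.41. CD29, its product, was itself part of the gate for P4, and the part of that gate in its RNA level was not tested. Itga6, the partner of beta 1 and beta 4 in laminin receptors, had 198 FPKM in the knockout and 287 FPKM in the control, a log2 ratio of -0.53. Both were lower in the knockout library. Itgb1 ranked above 99.5% to 99.7% of protein-coding genes in these libraries and Itga6 above 99.0% to 99.4%.

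The R-spondin receptors were close to level. Lgr5, which marks stem cells of several epithelia and binds R-spondin, had 70.2 FPKM in the knockout and 57.0 FPKM in the control, a log2 ratio of 0.30. Lgr6, its close relative, had 76.9 FPKM in the knockout and 80.9 FPKM in the control, a log2 ratio of -0.07. These receptors moved in opposite directions and by small amounts. Tspan8, a tetraspanin of the cell surface, had 15.4 FPKM in the knockout and 10.4 FPKM in the control, a log2 ratio of 0.52. Procr, the endothelial protein C receptor and a Wnt target that marks a subset of mammary stem cells, had 8.12 FPKM in the knockout and 4.20 FPKM in the control, a log2 ratio of 0.81. Procr was the least abundant member of the control library, and Tspan8 and Procr were the members furthest above 0. Procr is also known from endothelium: endothelial markers summed to 18.1 FPKM in the knockout and 10.9 FPKM in the control over 11 listed genes, 2 of 7 tested were at least 2-fold higher and 1 lower, and Pecam1 was at 7.71 FPKM in the knockout and 1.06 FPKM in the control. Tie1, Emcn, Egfl7 and Cldn5 were at 0 in the knockout, and the part of these cells in the Procr value was not tested.

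The transcription factors were all lower in the knockout library. Trp63, the gene of the basal master regulator p63, had 75.1 FPKM in the knockout and 119 FPKM in the control, a log2 ratio of -0.66. Its entry covers 2 groups of transcription start sites, with 1 value for both. Sox9, a progenitor factor, had 96.7 FPKM in the knockout and 150 FPKM in the control, a log2 ratio of -0.63. Snai2, the gene of the zinc-finger repressor Slug, had 94.0 FPKM in the knockout and 112 FPKM in the control, a log2 ratio of -0.25. These all lay within a 2-fold range. Bcl11b, a zinc-finger factor of T cells that also keeps mammary stem cells quiescent, had 3.29 FPKM in the knockout and 11.5 FPKM in the control, a log2 ratio of -1.54. Of all genes tested, 3.92% had a lower log2 ratio than Bcl11b. Of 7 listed T cell markers only Lck reached 1 FPKM, with a sum of 3.92 FPKM in the knockout and 4.03 FPKM in the control, and Cd3g and Themis were at 0 in both libraries. The part of T cells in the Bcl11b values was not tested.

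**Figure D1:**
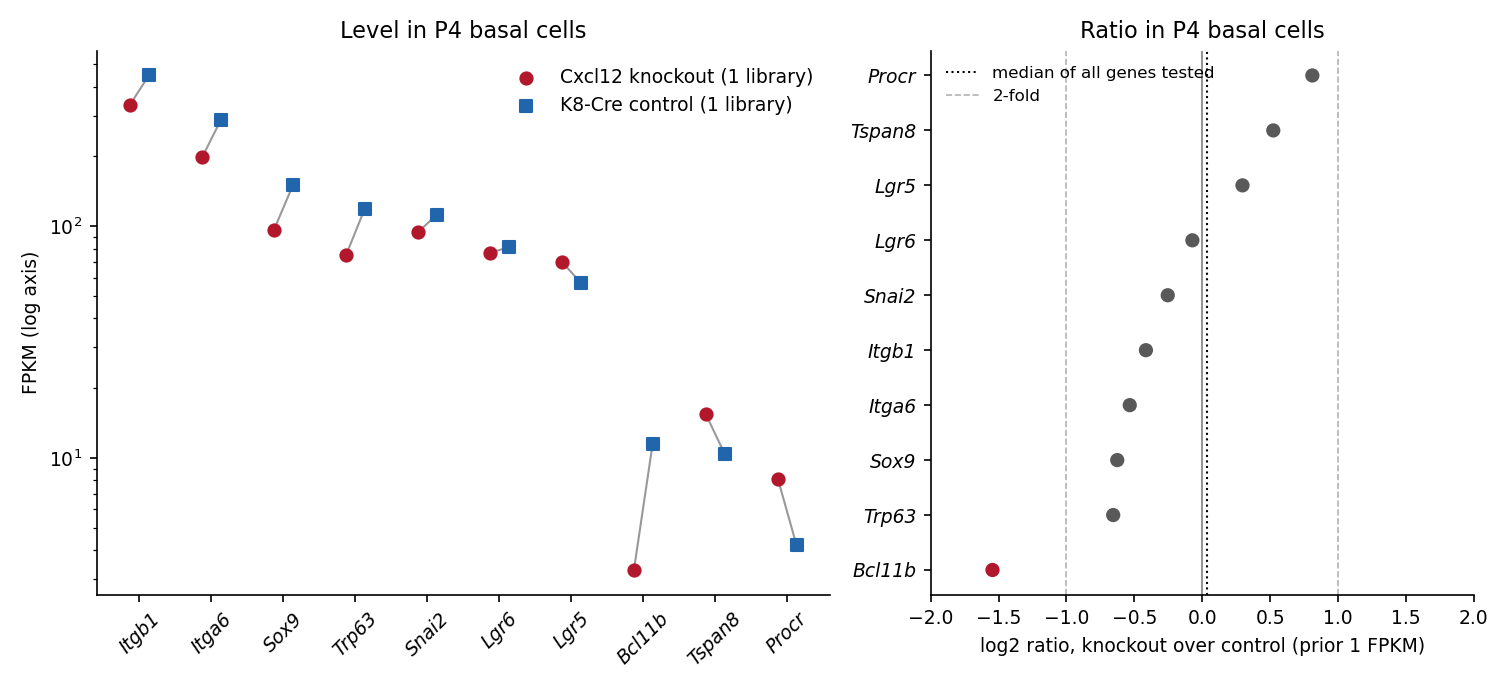
Levels of the 10 genes in P4 cells (left, FPKM on a log axis, 1 point per library) and their log2 ratios, Cxcl12 knockout over K8-Cre control (right), with dashed lines at 2-fold and a dotted line at the median of all genes. Bcl11b, at -1.54, is the only gene past a dashed line, and Procr, at 0.81, lies furthest to the right.

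The sequence just before the first annotated start is shown for Bcl11b and Procr, which had the lowest and the highest log2 ratio, and for Itgb1, the most abundant member. The sequences are RefSeq's, on GRCm38.p6, trimmed at the first GENCODE M21 start, and are written 5′ to 3′ on the strand of the gene. Capitals mark GC boxes (GGGCGG on either strand).

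Bcl11b, chr12:108003603-108003664, minus strand: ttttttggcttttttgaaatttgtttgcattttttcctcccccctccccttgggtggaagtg
Procr, chr2:155750967-155751116, plus strand: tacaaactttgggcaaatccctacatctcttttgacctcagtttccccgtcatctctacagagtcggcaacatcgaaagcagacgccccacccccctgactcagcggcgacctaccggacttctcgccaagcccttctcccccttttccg
Itgb1, chr8:128685404-128685653, plus strand: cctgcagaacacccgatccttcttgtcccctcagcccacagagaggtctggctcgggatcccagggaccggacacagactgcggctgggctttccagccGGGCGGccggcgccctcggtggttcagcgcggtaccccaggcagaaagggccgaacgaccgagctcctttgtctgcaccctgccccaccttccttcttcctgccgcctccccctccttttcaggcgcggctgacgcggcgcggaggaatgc

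The Bcl11b stretch is rich in runs of T and was 41.9% G or C over 62 bases, against 56.0% for Procr over 150 bases and 68.0% for Itgb1 over 250 bases. Windows of 300 bases around the RefSeq start were on file for 5 of the 10 genes, Procr, Lgr6, Bcl11b, Itgb1 and Tspan8. A GC box lay in the Lgr6 window 2 times and in the Itgb1 window once, and is present in 35.7% of 32851 such windows of the genome. A TATA box (TATAAA on either strand) lay once in the Bcl11b window, starting 5 bases before the RefSeq start but behind the first GENCODE start, and is present in 13.6% of windows. The Snail E-box CAGGTG (20.2% of windows), the TCF/LEF letters CTTTGAT (3.73%) and the SOX letters ACAATGG (3.66%) were not found in any of the 5 windows on either strand. These are letter matches only.

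Genes around these regulators were read as lists, by the same 2-fold rule. In P4 cells that rule called 23.1% of all genes, 13.5% higher and 9.68% lower, and the counts below stand beside these shares. Of 21 other mammary stem cell genes tested in P4 cells, 1 was higher and 3 were lower, with a median log2 ratio of -0.07. Among them Jag1, a Notch ligand of basal cells, had 94.3 FPKM in the knockout and 220 FPKM in the control, and Itgb3 (CD61) had 7.54 FPKM in the knockout and 20.9 FPKM in the control. Krt14, the basal keratin and the most abundant gene of the list, had 471 FPKM in the knockout and 561 FPKM in the control. Krt14 thus stayed within a 2-fold range.

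Of 12 genes of R-spondin, LGR and Wnt feedback tested, 0 were higher and 0 lower; Ctnnb1, the gene of beta-catenin, had 330 FPKM in the knockout and 371 FPKM in the control. Of 25 integrin and hemidesmosome partners, 1 was higher and 1 was lower (Itgb3), with a median log2 ratio of -0.26, and Itgav, the most abundant, had 143 FPKM in the knockout and 256 FPKM in the control. Of 15 genes of the p63 family and its targets, 1 was higher and 1 lower, with a median of -0.24. The lower one was Igfbp3, an insulin-like growth factor binding protein, at 226 FPKM in the knockout and 850 FPKM in the control, and the higher one was Nrg1, the neuregulin ligand, at 42.9 FPKM in the knockout and 17.7 FPKM in the control. Of 10 SOX and BCL11 relatives, 0 were higher and 0 lower, with Sox4 at 78.5 FPKM in the knockout and 104 FPKM in the control. Of 19 tetraspanins, 0 were higher and 1 was lower, and Cd9, the most abundant, had 221 FPKM in the knockout and 276 FPKM in the control.

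Of 11 genes of epithelial-mesenchymal transition, 4 were higher and 2 lower, with a median of 0.46: Vim, the mesenchymal intermediate filament, had 486 FPKM in the knockout and 159 FPKM in the control, and Zeb2 had 10.4 FPKM in the knockout and 4.40 FPKM in the control. Of 7 genes of the protein C pathway, 3 were higher and 0 lower: Thbd (thrombomodulin) had 15.2 FPKM in the knockout and 5.78 FPKM in the control, S1pr1 had 5.49 FPKM in the knockout and 0.848 FPKM in the control, and Tfpi had 5.23 FPKM in the knockout and 1.71 FPKM in the control. Vim, Zeb2 and these vessel genes are also expressed in stroma. Stromal marker sums were higher in the knockout P4 library: fibroblast markers summed to 539 FPKM in the knockout and 328 FPKM in the control (3 of 10 higher), pericyte markers to 67.7 FPKM in the knockout and 34.9 FPKM in the control (4 of 7 higher), and Schwann cell markers to 93.5 FPKM in the knockout and 68.6 FPKM in the control (3 of 6 tested higher). The part of stromal cells in the P4 values was not tested.

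In macrophages of the knockout table, Itgb1 was the highest member per kilobase of exon, with a median of 145 CPM per kb over the 8 knockout-table libraries, and ranked above 96.6% to 99.3% of protein-coding genes. Procr followed with a median of 5.70 CPM per kb, Itga6 with 4.58, Sox9 with 3.69 and Bcl11b with 1.39. The ranges of these 4 overlapped. Snai2 had a median of 0.284 CPM per kb, Trp63 of 0.118, Lgr6 of 0.0949 and Lgr5 of 0.0606, with 3 reads or more in all 8 libraries for Trp63, Lgr6 and Lgr5 and in 7 of 8 for Snai2. Macrophage markers checked the label: 14 of 14 were listed, with sums of 4130 to 8460 CPM per library and Fcgr1 at 0 in LysM-Cre control 1, against 62.7 to 306 CPM for 11 endothelial markers and 66.2 to 386 CPM for 9 listed basal markers. Fibroblast markers summed to 260 to 816 CPM and luminal markers to 227 to 535 CPM in the same libraries, and B cell markers to 145 to 828 CPM.

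Cxcr4 knockout macrophages were compared with LysM-Cre controls by limma on log2(CPM + 1) over 17275 genes of the 8 libraries. No member passed: 0 of 9 had an adjusted p under 0.05 by limma, where 0.00579% of all genes did, and 0 had an unadjusted p under 0.05, where 575 genes did. Itgb1 had 309 and 700 CPM in knockout macrophages and 344 and 825 CPM in controls. The groups overlapped, and library 1 was the lower one in each. The log2 change was -0.19 (SE 0.46, 95% interval -1.11 to 0.72, limma adjusted p = 1.0). Procr had 58.0 and 10.8 CPM in knockout macrophages and 56.0 and 12.3 CPM in controls, so its spread lay between libraries of a group and hardly between genotypes. Its log2 change was -0.06 (SE 1.48).

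Sox9 had 2.85 and 18.1 CPM in Cxcr4 knockout macrophages and 19.4 and 12.4 CPM in controls. The groups overlapped, and 1 knockout library was low. The log2 change of -0.94 (SE 1.54, interval -4.00 to 2.12) was the furthest from 0 of the 9, with the lowest unadjusted p of the 9 at 0.542 (limma). Without Cxcr4 knockout 1 it was 0.21, in the opposite direction. Itga6 had 24.1 and 47.7 CPM in knockout macrophages and 16.1 and 43.5 CPM in controls, a log2 change of 0.34 (SE 1.01). Bcl11b had 1.19 and 12.0 CPM in knockout macrophages and 0.353 and 31.5 CPM in controls, a log2 change of -0.32 (SE 1.86). In both genes library 2 of each group was the higher one, and the groups overlapped. T cell markers summed to 91.5 and 100 CPM in knockout macrophages and 285 and 161 CPM in controls, and their part in the Bcl11b values was not tested.

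**Figure D2:**
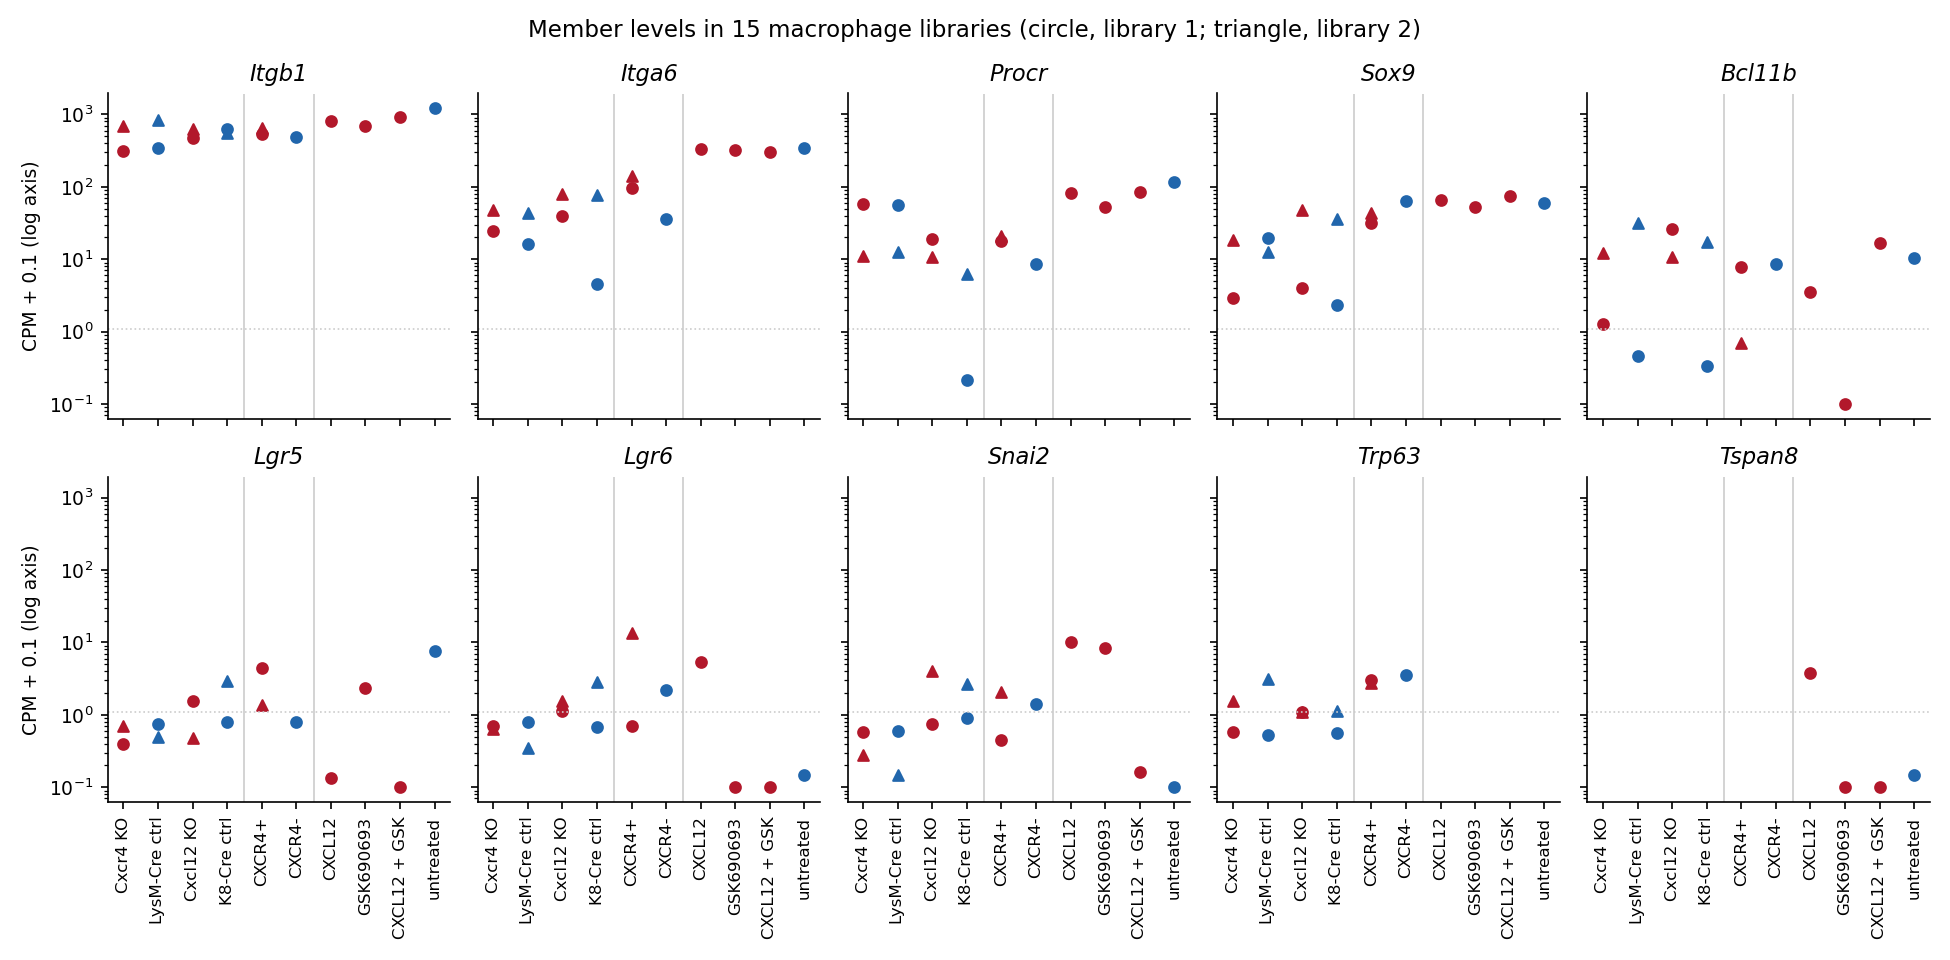
CPM, with 0.1 added and on a log axis, of each gene in the 15 macrophage libraries, 1 point per library, with knockout, CXCR4-positive or treated groups in red and control, CXCR4-negative or untreated groups in blue. Itgb1 lies at 309 CPM or more in every library, while Procr in K8-Cre control 1 stands at 0.116 CPM and the receptors Lgr5 and Lgr6 reach at most 13.5 CPM, where the dotted line marks 1 CPM.

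Cxcl12 knockout macrophages were compared with K8-Cre controls in the same fit. Again 0 of 9 members passed by limma, beside 0.0% of all genes, and 0 members had an unadjusted p under 0.05, beside 491 genes. Procr had 18.7 and 10.5 CPM in knockout macrophages and 0.116 and 6.05 CPM in controls. Both knockout libraries lay above both controls, and the lowest value was a single read in K8-Cre control 1. The log2 change was 2.43 (SE 1.48, interval -0.51 to 5.37, limma unadjusted p = 0.105, adjusted p = 1.0). Without K8-Cre control 1 it was 1.10, and without K8-Cre control 2 it was 3.75.

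Itga6 had 39.1 and 79.4 CPM in Cxcl12 knockout macrophages and 4.38 and 76.8 CPM in controls, a log2 change of 1.47 (SE 1.01, interval -0.53 to 3.48). Bcl11b had 26.4 and 10.6 CPM in knockout macrophages and 0.233 and 17.0 CPM in controls, a log2 change of 1.92 (SE 1.86). In both genes the groups overlapped, and the low value was K8-Cre control 1, which held under 3 reads of Bcl11b. Without that library the changes were -0.45 for Itga6 and -0.01 for Bcl11b, in the opposite direction. Sox9 had 3.93 and 48.5 CPM in knockout macrophages and 2.21 and 35.6 CPM in controls, a log2 change of 0.53 (SE 1.54), with an overlap in which library 1 of each group was low. Without K8-Cre control 1 it was -1.23.

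Itgb1 had 466 and 631 CPM in Cxcl12 knockout macrophages and 624 and 561 CPM in controls, a log2 change of -0.12 (SE 0.46, interval -1.04 to 0.79). Its interval was the narrowest of the members in this fit, where the spread of a gene came mostly from genes of similar level. The other 4 genes, Lgr5, Lgr6, Snai2 and Trp63, had 0.0497 to 3.98 CPM in the 8 libraries, and none passed in either knockout. The median log2 change of all genes was 0.36 in the Cxcl12 knockout, where that of the 9 members was 0.20. In the Cxcr4 knockout the median of all genes was 0.14 and that of the members -0.07. T cell marker sums were 212 and 134 CPM in Cxcl12 knockout macrophages and 134 and 127 CPM in controls, and endothelial marker sums were 149 and 247 CPM in knockouts and 62.9 and 306 CPM in controls.

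The change in the Cxcr4 knockout was also set against that in the Cxcl12 knockout. The difference passed for 0 of 9 members (limma), beside 0.00579% of all genes, with 0 members and 428 genes at an unadjusted p under 0.05. The difference furthest from 0 was that of Procr at -2.49 (SE 2.10, limma adjusted p = 1.00). A p that misses the threshold does not show that the deletions act alike: the intervals reached from -6.64 to 1.67 for Procr and from -1.37 to 1.23 for Itgb1.

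Between macrophages with and without surface CXCR4, 1 of 9 members, Itga6, passed under a variance taken wholly from the mean-variance trend (infinite prior degrees of freedom), with a single negative library. Itga6 had 94.9 and 139 CPM in CXCR4-positive macrophages and 36.3 CPM in CXCR4-negative macrophages. Both positive libraries lay above the negative one. The log2 change was 1.64 (SE 0.40, interval 0.86 to 2.42, limma adjusted p = 0.00103), higher in 2 of 2 positive libraries. It was the member that passed, beside 8.46% of 14411 genes tested (5.06% higher, 3.4% lower). The call was lost without the mean-variance trend (adjusted p = 0.347), where 0 of 14411 genes passed, and without the filter on low levels (adjusted p = 0.288), and the fit has 1 residual degree of freedom, with the lone negative library assumed to vary like the positive pair. Over the alternatives its adjusted p lay between 0.000809 and 0.347.

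Macrophage markers moved with the same sort: 10 of 14 passed higher and 1 passed lower, with sums of 10030 and 11242 CPM in positive cells and 4420 CPM in the negative library, and C1qc, a complement subunit of resident macrophages, had a log2 change of 6.44. The part of that difference in the Itga6 value was not tested. Endothelial markers, of a lineage that also expresses Itga6, passed in 0 of 11 cases and summed to 190 and 156 CPM in positive cells and 219 CPM in the negative library. The part of endothelial cells in the Itga6 value was not tested. Fibroblast markers passed higher in 3 of 8 tested (Col1a1 at 1.99, Col3a1 at 1.79 and Col1a2 at 1.41) and summed to 209 and 481 CPM in positive cells and 111 CPM in the negative library, and their part in the Itga6 value was not tested.

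Procr had 17.7 and 20.8 CPM in CXCR4-positive macrophages and 8.50 CPM in negative ones, a log2 change of 1.09 (SE 0.71, interval -0.30 to 2.48, limma adjusted p = 0.427). Itgb1 had 530 and 644 CPM in positive macrophages and 482 CPM in negative ones, a log2 change of 0.28 (SE 0.33). Sox9 had 31.2 and 43.3 CPM in positive macrophages and 63.6 CPM in negative ones, a log2 change of -0.78 (SE 0.46, limma adjusted p = 0.376). In these genes, and in Bcl11b, Lgr5 and Trp63, both positive libraries lay on the same side of the negative one, but none passed. Bcl11b had 7.81 and 0.588 CPM in positive macrophages and 8.45 CPM in negative ones. Lgr5 had 4.27 and 1.29 CPM in positive macrophages and 0.690 CPM in negative ones. Neither passed, with a log2 change of -1.34 for Bcl11b and 1.04 for Lgr5. Trp63 had 2.92 and 2.61 CPM in positive macrophages and 3.41 CPM in negative ones, and Snai2 had 0.347 and 1.99 CPM in positive macrophages and 1.29 CPM in negative ones. Lgr6 had 0.590 and 13.5 CPM in positive macrophages and 2.11 CPM in negative ones, so the positive pair differed more from each other than from the negative library.

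**Figure D3:**
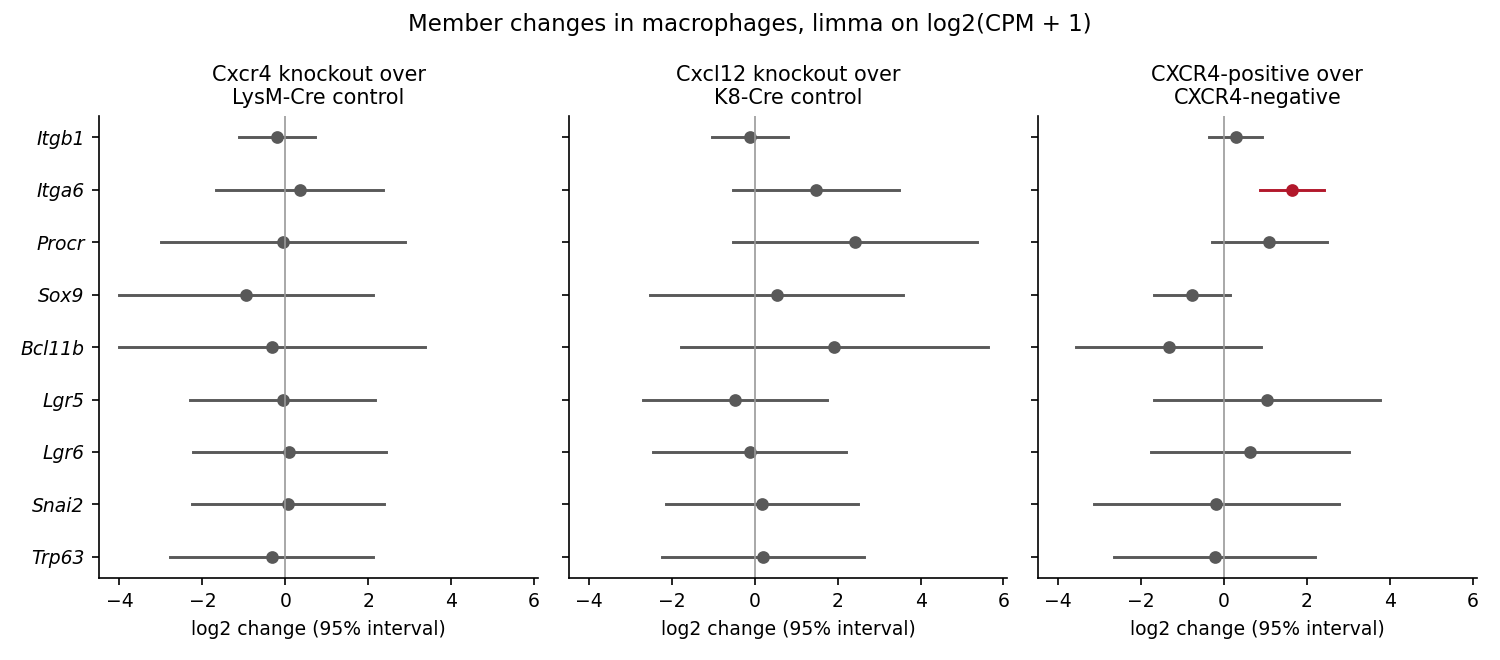
Log2 changes of 9 genes in macrophages with 95% intervals from limma, for the Cxcr4 knockout (left), the Cxcl12 knockout (middle) and surface CXCR4 (right); red marks an adjusted p under 0.05. Itga6 in the CXCR4 sort, at 1.64, is the only red point, and the intervals of the knockout panels all cross 0.

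Lists around the members were read in the CXCR4 sort beside the 8.46% of all genes that passed. These calls rest on the same fit with a single negative library. In that fit 0 genes passed without the trend, and 0 without the filter on low levels. Macrophage markers summed lower in the negative library, and their part in these changes was not tested. Of 25 integrin and hemidesmosome partners, 2 passed higher and 2 passed lower: Itgb5 had a log2 change of 3.19 and Itga5, the fibronectin receptor subunit, of 2.25, while Itga4 had -1.84 and Itgb3 -2.94. Of 7 protein C pathway genes tested, 3 passed higher and 0 lower: Tfpi at 2.50, Pros1 at 2.20 and S1pr1 at 1.77. Of 21 tetraspanins, 3 passed higher (Tspan4 at 2.50, Cd63 at 2.07 and Cd81 at 2.05) and 1 passed lower (Cd9 at -1.87). Lrp6, a Wnt co-receptor, was the 1 of 13 R-spondin, LGR and Wnt feedback genes to pass, at 2.05. Bcl11a, the close relative of Bcl11b, was the 1 of 7 SOX and BCL11 relatives to pass, at -4.63. Of 19 other mammary stem cell genes tested, 0 passed higher and 1 passed lower (Itgb3). Of 7 genes of epithelial-mesenchymal transition and 10 of the p63 family and its targets, 0 passed by limma.

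In cultured macrophages the 4 most abundant members stayed within 2-fold of the untreated library, apart from Procr with the AKT inhibitor. Procr had 83.2 CPM with CXCL12, 53.0 CPM with GSK690693, 85.7 CPM with both and 118 CPM untreated, and only the GSK690693 value was at least 2-fold apart from untreated, at a log2 ratio of -1.14. Itgb1 had 800 CPM with CXCL12, 687 CPM with GSK690693, 913 CPM with both and 1217 CPM untreated. All 3 treated libraries lay below the untreated one for both genes, and for Itga6 as well. Itga6 had 336 CPM with CXCL12, 318 CPM with GSK690693, 298 CPM with both and 348 CPM untreated. Sox9 had 66.6 CPM with CXCL12, 52.8 CPM with GSK690693, 75.3 CPM with both and 60.6 CPM untreated. These 2 stayed within a 2-fold range of the untreated library, with no replicate check.

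The other members were low and scattered. Bcl11b had 3.37 CPM with CXCL12, 0 with GSK690693, 16.5 CPM with both and 10.2 CPM untreated. Snai2 had 9.92 CPM with CXCL12, 8.38 CPM with GSK690693, 0.0624 CPM with both and 0 untreated. Lgr5 had 0.0344 CPM with CXCL12, 2.23 CPM with GSK690693, 0 with both and 7.57 CPM untreated. Each of these genes was at 0 in 1 of the 4 libraries. Lgr6 had 5.30 CPM and Tspan8 3.72 CPM with CXCL12, and both were at 0 or 1 read in the other 3 libraries. A value of 0 allows up to 3 reads, which is 0.209 CPM with GSK690693, 0.187 CPM with both and 0.142 CPM untreated; this limit covers counting error only.

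By the 2-fold rule, 3 of 9 members tested were higher and 2 lower with CXCL12, where 43.6% of all genes were called (22.9% higher, 20.7% lower). With GSK690693, 1 of 7 tested was higher and 3 were lower, where 50.0% were called (24.1% higher, 25.9% lower). With both agents, 0 of 6 tested were higher and 1 was lower, where 59.4% were called (18.8% higher, 40.5% lower) and the median of all genes was -0.39. Against that background these small counts give no result about the members. These comparisons share the untreated library.

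**Figure D4:**
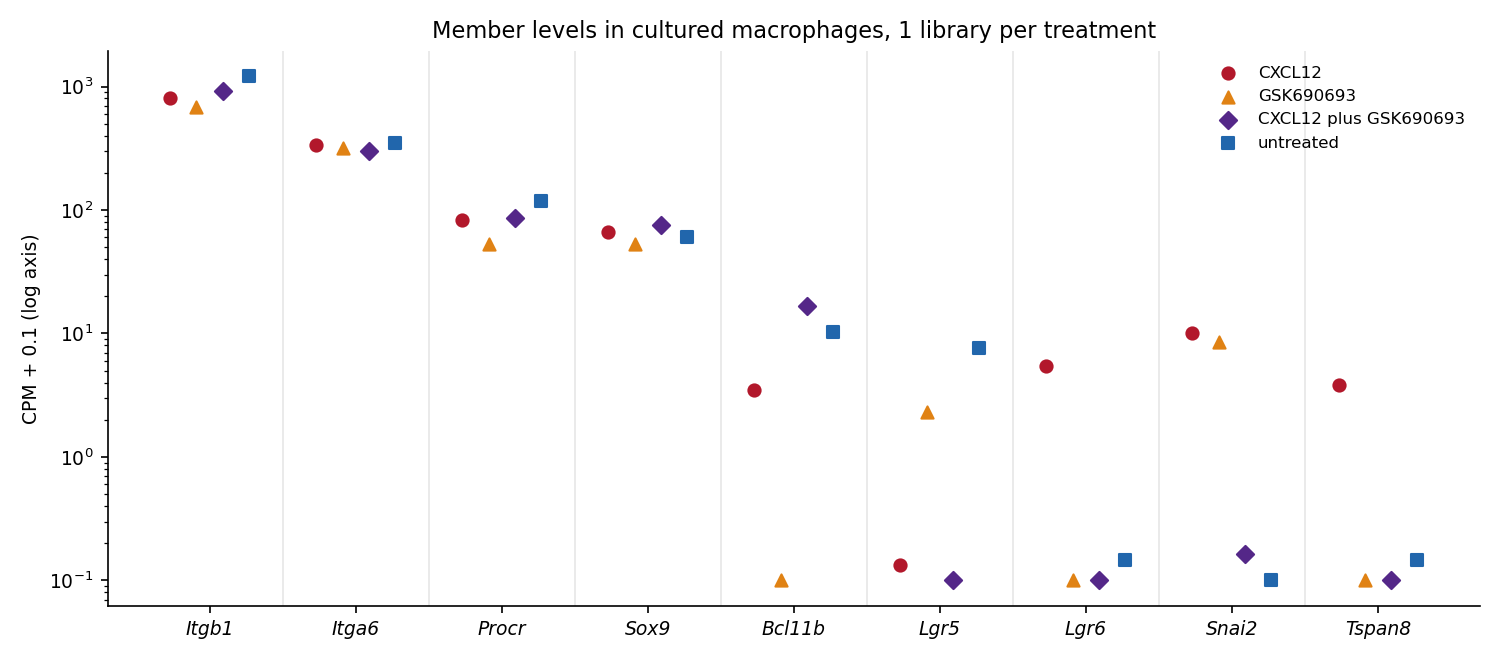
CPM, with 0.1 added and on a log axis, of 9 genes in the 4 cultured libraries, 1 point per treatment. Itgb1, Itga6, Procr and Sox9 lie at 52.8 CPM or more in every library, while the other 5 lie between 0, drawn at 0.1, and 16.5 CPM.

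Itga6 was higher in each cultured library than in any freshly sorted one, and Procr was in 3 of the 4. Procr had 53.0 to 118 CPM in culture, beside 0.116 to 58.0 CPM in the 11 freshly sorted libraries. Itga6 had 298 to 348 CPM in culture, beside 4.38 to 139 CPM freshly sorted. Procr overlapped only between the GSK690693 library and the highest sorted ones. These tables were normalized separately and their gene starts differ, so no test was made across them.

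Endothelial marker sums were also higher in culture than in the sorted tables. All 11 of 11 were at 1 CPM or more in each cultured library, with sums of 2368 to 3401 CPM, beside 62.7 to 306 CPM in the knockout table and 156 to 219 CPM in the CXCR4 sort. Macrophage markers summed to 2225 to 2489 CPM in culture, less than in any sorted library, and Fcgr1 was at 0 in the untreated library and with both agents. Cdh5, the vascular cadherin, had 678 CPM with CXCL12, 869 CPM with GSK690693, 774 CPM with both and 697 CPM untreated. Pericyte markers summed to 776 to 1101 CPM. In culture Procr was lowest, at 53.0 CPM, with GSK690693, where the endothelial sum was highest. Among sorted libraries Procr was highest, at 58.0 CPM, in LysM-Cre Cxcr4 knockout 1, where that sum was lowest. Other libraries went the other way. K8-Cre control 1, with a sum of 62.9 CPM, had Procr at 0.116 CPM and Itga6 at 4.38 CPM. K8-Cre control 2, with a sum of 306 CPM, had Procr at 6.05 CPM and Itga6 at 76.8 CPM. The part of endothelial cells in the levels of Procr and Itga6 was not tested.

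**Figure D5:**
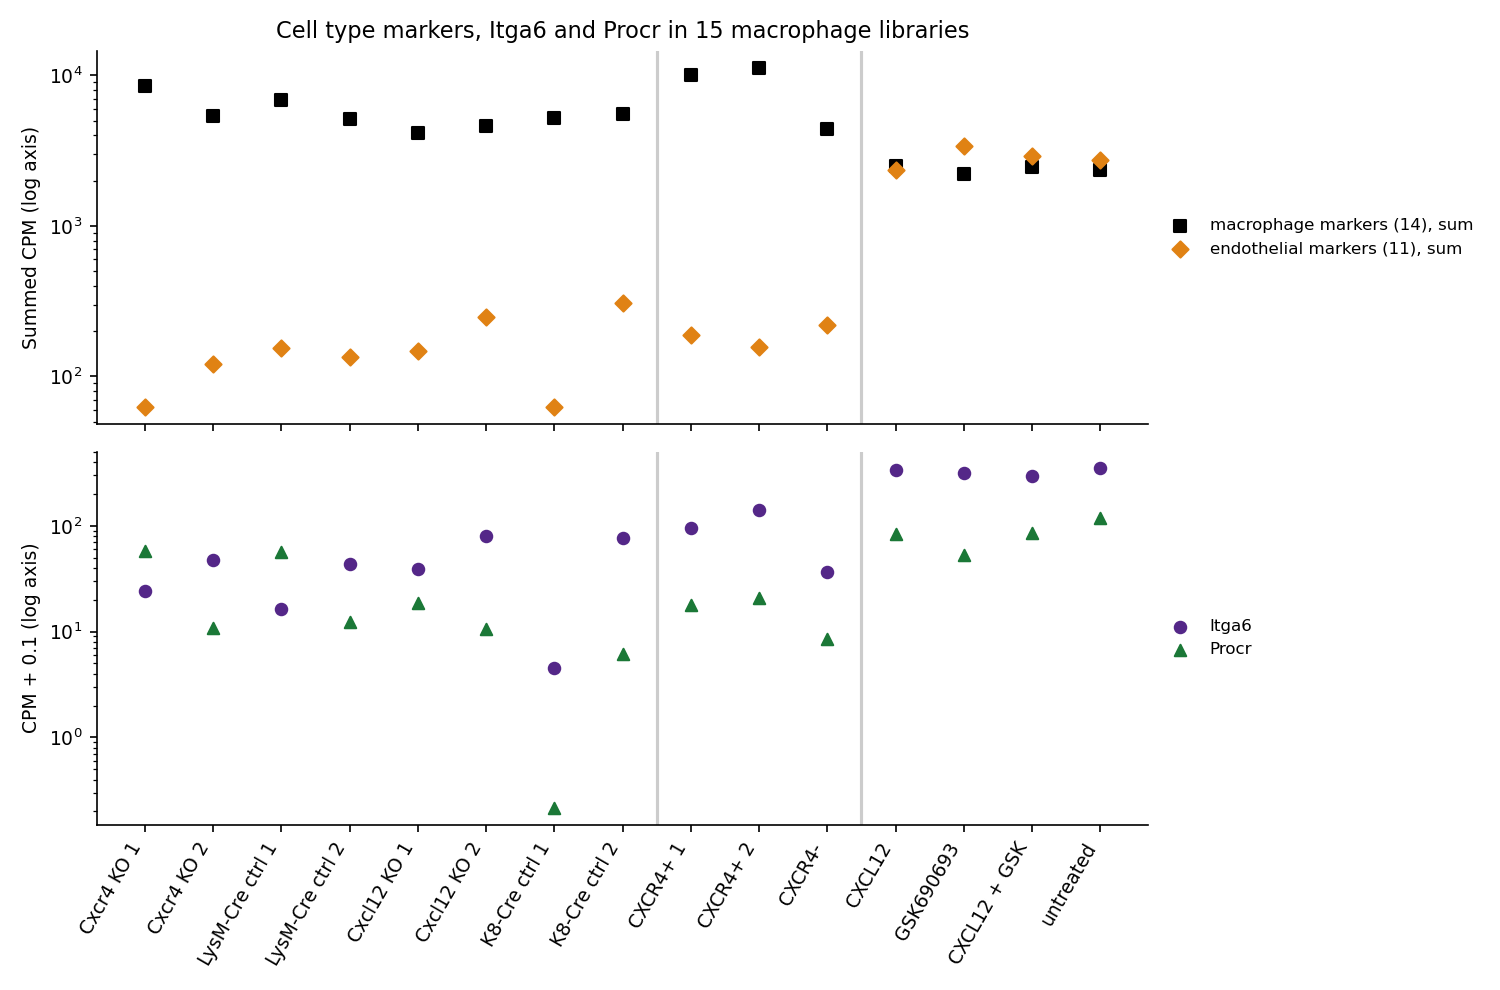
Summed CPM of macrophage and endothelial markers (top) and CPM, with 0.1 added, of Itga6 and Procr (bottom) in the 15 macrophage libraries, all on log axes. In the 4 cultured libraries, on the right, endothelial sums of 2368 to 3401 CPM stand beside Itga6 at 298 to 348 CPM, while sorted libraries hold 62.7 to 306 CPM and 4.38 to 139 CPM.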

How the data were processed

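RNA of 17 mouse mammary libraries in 12 groups was analysed from 4 tables. The submitters' processing notes name STAR 2.7.8a, Partek and build hg38, although symbols and coordinates are mouse; other settings are not given in the sources used here. The 3 macrophage tables were deposited by the authors as log2 values, read from their values as log2(CPM + 0.0001), and were turned back to CPM. Depth was taken from the smallest CPM step, read as 1 read. The authors deposited the P4 table as FPKM in a Cufflinks layout, per the file headers. Gene starts matched GENCODE M21 on GRCm38 for 99.5% of genes in the knockout and CXCR4 tables and 2.15% in the culture table, and lengths per gene are exon unions of that annotation. Of entries sharing a symbol, the one with the highest sum over libraries was kept.

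Replicated comparisons used limma 3.58.1 (R 4.3.3) with trend on log2(CPM + 1), for genes of at least 1 CPM in 2 or more libraries, two-sided, with Benjamini-Hochberg adjustment over all genes; the knockout fit used all 8 libraries, with 4 residual and 97.3 prior degrees of freedom. Standard errors, intervals and p-values of that fit thus reflect mostly the trend over genes of similar level, and less a gene's own libraries. A pseudocount of 1 understates changes of low genes. Comparisons of 1 library a group are log2 ratios with a prior of 1. Both were run on simulated data easier than these. The limma simulation had less spread than these libraries and changes only in more abundant genes, and the ratio simulation had no noise. These runs check the code and do not show how well changes are found in these data. The 10 genes and the 19 lists were chosen with earlier results of these data known. Genes named from lists were those passing (or at least 2-fold apart at 5 CPM or FPKM or more), at most 4 a list, and the most abundant in the P4 control. Alternatives were other pseudocounts, priors, filters, quantile scaling, no trend, a replicate block and leaving out each library.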

Additional observations from a re-analysis of the deposited data

Results flagged for a closer look

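The log2 ratios of Snai2 and Bcl11b for CXCL12 had opposite signs with and without the AKT inhibitor in culture. These differences were not tested, with 1 library per treatment. The share of all genes that turned sign in this way is not given here, so this is no result about the members. With CXCL12 over untreated, 43.6% of all genes tested were at least 2-fold apart. For Snai2 the log2 ratio of CXCL12 over no CXCL12 was 3.45 without GSK690693 and -3.14 with it. For Bcl11b it was -1.36 without GSK690693 and 4.13 with it. Both genes were at or under 16.5 CPM in all 4 libraries and at 0 in 1 of them, Snai2 in the untreated library and Bcl11b with GSK690693.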

How the results depend on the processing

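The count of members passing was 0 in both knockouts and in their difference under each alternative that was run, leave-one-out settings included. With the replicate block it was also 0, and the block gave Procr 2.43 in the Cxcl12 knockout, with an adjusted p of 0.979; it changed no member's call, and 1 gene of all tested passed in the Cxcl12 knockout in place of 0. The labels do not say what same-numbered repeats share. The deviations of same-numbered libraries correlated at 0.0573 to 0.139 over the pairs of groups, all positive and not all above 0.1. In each group of the knockout table library 2 was the deeper one and had fewer listed genes at 0. In the CXCR4 sort the count of 1 became 0 without the filter on low values and 0 without the trend, where 0 genes passed in all, and leaving out 1 positive library gives no test there, since no residual degrees of freedom remain. With a minimum of 10 CPM in the higher library, the culture counts became 1 with CXCL12, 2 with GSK690693 and 0 with both agents, since fewer genes are tested; with quantile scaling the last was 2, and the cause was not tested. P4 kept its count of 1, and Bcl11b lay between -1.78 and -1.54; Zeb2 fell short of 2-fold with quantile scaling (0.97).

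Quantile scaling moved the median of all genes to 0.01 in the Cxcr4 knockout and 0.02 in the Cxcl12 knockout. It turned the sign of Lgr6 (-0.42) and Snai2 (-0.33) in the Cxcr4 knockout, of Trp63 (-0.94), Snai2 (-0.83) and Sox9 (-0.74) in the Cxcl12 knockout, of Trp63 (0.36), Snai2 (0.50) and Sox9 (0.064) in their difference, and of Itgb1 in the CXCR4 sort (-0.000927). A pseudocount of 0.1 turned Bcl11b in the Cxcr4 knockout (0.059) and Snai2 in the difference (0.25).

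Leaving out 1 library moved the Cxcr4 knockout change of Procr over -1.22 to 1.10, Lgr5 -0.22 to 0.089, Lgr6 -0.13 to 0.33, Trp63 -1.08 to 0.42, Snai2 -0.18 to 0.33, Bcl11b -2.61 to 1.98, Itgb1 -0.83 to 0.44, Itga6 -0.35 to 1.03 and Sox9 -2.10 to 0.21. The Cxcl12 knockout change moved over -0.75 to 0.50 for Lgr6, -0.043 to 0.44 for Trp63, -0.31 to 0.97 for Snai2, -0.013 to 3.86 for Bcl11b, -0.34 to 0.093 for Itgb1, -0.45 to 3.40 for Itga6 and -1.23 to 2.28 for Sox9. The difference moved over -0.00243 to 0.99 for Lgr5, -0.40 to 0.85 for Lgr6, -1.28 to 0.22 for Trp63, -0.90 to 0.38 for Snai2, -4.53 to 0.055 for Bcl11b, -0.70 to 0.56 for Itgb1, -3.06 to 0.80 for Itga6 and -3.23 to 0.29 for Sox9. In the CXCR4 sort Lgr6 moved over -0.97 to 2.22, Snai2 over -0.77 to 0.38 and Bcl11b over -2.57 to -0.10. Each of these settings leaves 1 library in a group, so only the size of the change is given, and the CXCR4 sort values have no test.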

Other observations

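For members averaging at least 10 CPM in the knockout table, the genes with the most similar pattern were found by the root mean square difference of centred log2(CPM + 1) over the 8 libraries, among 8982 genes. For Itgb1 these were Adam10, a membrane protease (0.137), Qk, an RNA-binding protein (0.163), and Cdc42, a small GTPase (0.167), where the spread of Itgb1 itself was 0.46. For Itga6 the nearest was Arrdc2 (0.340), for Procr Gm37726 (0.342), for Sox9 Slc7a2 (0.403) and for Bcl11b Gm44981 (0.214), where their own spreads were 1.21, 1.70, 1.40 and 1.83. The libraries that share these patterns differ in depth, and no test was made.

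Itga6 was higher in library 2 than in library 1 in 4 of 4 groups of the knockout table, by 0.96 to 3.85 on the log2 scale, and so was Trp63, by 0.01 to 1.50. Procr was higher in library 2 in 1 of 4 groups. Library 2 was the deeper one in each of these groups, and the part of depth in these values was not tested. The share of all genes higher in library 2 in 4 of 4 groups is not given here, so these counts do not set the members apart.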
